A study of Mus musculus with 9 samples.

Results

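The genes described are 10 members of TGF-beta and PDGF signalling, taken as the rows of the deposited count matrix for the symbols Tgfb1, Tgfb2, Tgfb3, Ltbp2, Tgfbr1, Tgfbr2, Smad3, Smad7, Pdgfra and Pdgfd, out of 22851 genes in all. They were followed in RNA of heart tissue of male C57BL/6J mice aged 6 to 8 weeks at the start, with 3 libraries in each of the CK, DCM and SPM groups. CK (control check) mice received citrate buffer. DCM (diabetic cardiomyopathy) mice received a single dose of streptozotocin (STZ) at 180 mg/kg, a toxin of pancreatic beta cells that sets up a model of type 1 diabetes, and were followed for 12 weeks. SPM mice received STZ too, with spermine, a natural polyamine, at 1 mg/kg every day for the 2 weeks before STZ and every other day during the 12 weeks after it. No group received spermine without STZ, so SPM was compared to DCM for the effect of spermine in diabetic mice and to CK for the distance from the non-diabetic heart. All 10 genes passed the filter on low counts in all 3 comparisons.

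TGF-beta ligands are secreted in a latent complex that is stored in the extracellular matrix and has to be opened, by integrins among others, before the ligand can bind. The active ligand brings together the type II and type I receptors (Tgfbr2 and Tgfbr1), the type I receptor phosphorylates Smad3, and Smad3 enters the nucleus to act on target genes such as fibrillar collagens, while Smad7 is an inhibitory SMAD that is itself induced by the pathway. In the heart the pathway is known for activating fibroblasts and for scar and interstitial fibrosis. PDGF ligands act on receptor tyrosine kinases. Pdgfra marks cardiac fibroblasts, and PDGF-D, encoded by Pdgfd, is a ligand of the other PDGF receptor, which is found mainly on mural cells.

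Total counts were 29901300 to 39718680 per library, and each of the 10 genes held between 199 and 4985 counts in every library. The paper states both 3 mice per group and 18 hearts mixed in pools of 6, so a library may be a single mouse or a pool, and p-values then measure only the spread between these libraries. The extraction protocol in the labels speaks of retinas and the tissue label of heart. All 6 cardiomyocyte markers in the matrix (Myh6, Myl2 and Tnnt2 the most abundant) reached 1 CPM in every library, whereas the 8 retina markers in the matrix stayed under 1 CPM in every library. SPM replicate 2 lay between SPM replicates 1 and 3 for 68.5% of genes, compared to 14.6% to 40.6% for every other library within its group. Of 2656 genes without a count in SPM replicates 1 and 3, 30 had a count in replicate 2, compared to 485 to 1162 genes for the other libraries. It may therefore not be a separate sample, and the calls of the 10 genes, the counts over all pathway genes and the fibroblast and macrophage counts are given with and without it. Fold changes of all genes ran with the GC content of the gene (the share of G and C in its longest transcript) in SPM compared to DCM (Spearman rho -0.50 across genes, which are not replicates) and in SPM compared to CK (-0.37), and hardly in DCM compared to CK (0.06).

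The upstream sequences of the genes on which the ligand and receptor results turn are shown first, to place their starts in the genome (RefSeq promoter table, GRCm38.p6, the 250 bases before the start, 5′ to 3′ on the strand of the gene). The table held 8 of the 10 genes. Capitals mark CAGAC, part of the SMAD-binding element, and GGGCGG, a GC box, each on either strand, and the motifs did not overlap. Tgfb1 and Tgfb2 are shown as the ligands that moved in opposite directions in SPM compared to CK, and Tgfbr1, at the first of its starts in the table, as the receptor that passed the test in both comparisons with SPM.
Tgfb1: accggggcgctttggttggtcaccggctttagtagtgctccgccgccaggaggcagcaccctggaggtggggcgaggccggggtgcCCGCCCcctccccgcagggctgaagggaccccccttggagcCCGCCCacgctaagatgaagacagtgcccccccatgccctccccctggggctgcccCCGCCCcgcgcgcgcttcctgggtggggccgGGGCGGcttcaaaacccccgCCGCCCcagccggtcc
Tgfb2: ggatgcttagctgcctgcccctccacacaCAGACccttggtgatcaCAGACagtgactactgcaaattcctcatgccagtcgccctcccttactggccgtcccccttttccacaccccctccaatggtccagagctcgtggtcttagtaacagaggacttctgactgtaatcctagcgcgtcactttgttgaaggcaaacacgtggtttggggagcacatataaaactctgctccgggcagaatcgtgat
Tgfbr1: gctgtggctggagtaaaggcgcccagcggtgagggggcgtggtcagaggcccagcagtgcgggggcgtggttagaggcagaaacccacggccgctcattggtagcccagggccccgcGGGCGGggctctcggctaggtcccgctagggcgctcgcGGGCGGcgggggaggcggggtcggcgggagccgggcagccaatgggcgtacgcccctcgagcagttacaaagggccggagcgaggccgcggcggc

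The Tgfb1 window lies at chr7:25686752-25687001 on the plus strand, is 75.2% G and C, and held GGGCGG at 5 places and CAGAC at none. The Tgfb2 window lies at chr1:186705990-186706239 on the minus strand, is 53.6% G and C, and held CAGAC at 2 places and GGGCGG at none. The Tgfbr1 window lies at chr4:47352972-47353221 on the plus strand, is 74.8% G and C, and held GGGCGG at 2 places and CAGAC at none. The table gives Tgfbr1 another start, and the window before it, at chr4:47385966-47386215 and 52.8% G and C, held CAGAC at 1 place and GGGCGG at none. Over all 32851 windows of the same length in the table, 42.2% held CAGAC, 32.7% held GGGCGG, and the median G and C content was 52.4%. The windows of Tgfb1 and Tgfb2 shared neither motif, and a match or its absence in these windows is a description only.

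Levels of different genes were compared as FPKM, which divides by the length of the gene. In CK, Tgfb1 was the highest of the 10 genes at 20.9 ± 2.07 FPKM (mean ± SD, n = 3 libraries in this and every such value), followed by Tgfbr2 at 15.2 ± 1.06 and Pdgfra at 12.6 ± 0.431. Smad3 (8.66 ± 0.207) and Smad7 (7.46 ± 0.153) came next, and none of these 5 genes overlapped its neighbour in the order. The remaining genes had Pdgfd 4.45 ± 0.536, Tgfb3 3.56 ± 0.422, Tgfbr1 3.43 ± 0.401, Ltbp2 2.28 ± 0.403 and Tgfb2 1.95 ± 0.236 FPKM, with overlapping libraries between Pdgfd and Tgfb3, between Tgfb3 and Tgfbr1 and between Ltbp2 and Tgfb2.

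In DCM the first 3 genes kept their order, with Tgfb1 at 18.4 ± 2.62, Tgfbr2 at 15.2 ± 0.576 and Pdgfra at 12.2 ± 0.576 FPKM. Smad7 (6.31 ± 0.477) and Smad3 (6.29 ± 0.606) overlapped there, and Pdgfd (3.83 ± 0.749) stood above the remaining genes. These overlapped with their neighbours, with Tgfbr1 at 3.07 ± 0.0372, Tgfb3 at 2.77 ± 0.316, Tgfb2 at 2.35 ± 0.199 and Ltbp2 at 1.97 ± 0.271 FPKM. In SPM, Tgfb1 was no longer apart at the top, since Tgfbr2 (16.6 ± 1.53), Tgfb1 (15.0 ± 1.27) and Pdgfra (13.9 ± 0.293) overlapped with their neighbours. Smad7 (6.79 ± 0.350) and Smad3 (6.76 ± 0.238) overlapped again, as did Pdgfd (4.53 ± 0.3003) and Tgfbr1 (4.34 ± 0.204). Tgfb2 (2.50 ± 0.114) overlapped with Tgfb3 (2.33 ± 0.280), and Ltbp2 was the lowest at 1.3 ± 0.402 FPKM. The deposited FPKM values were not rescaled between libraries, so differences between groups were tested on counts.

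**Figure D1:**
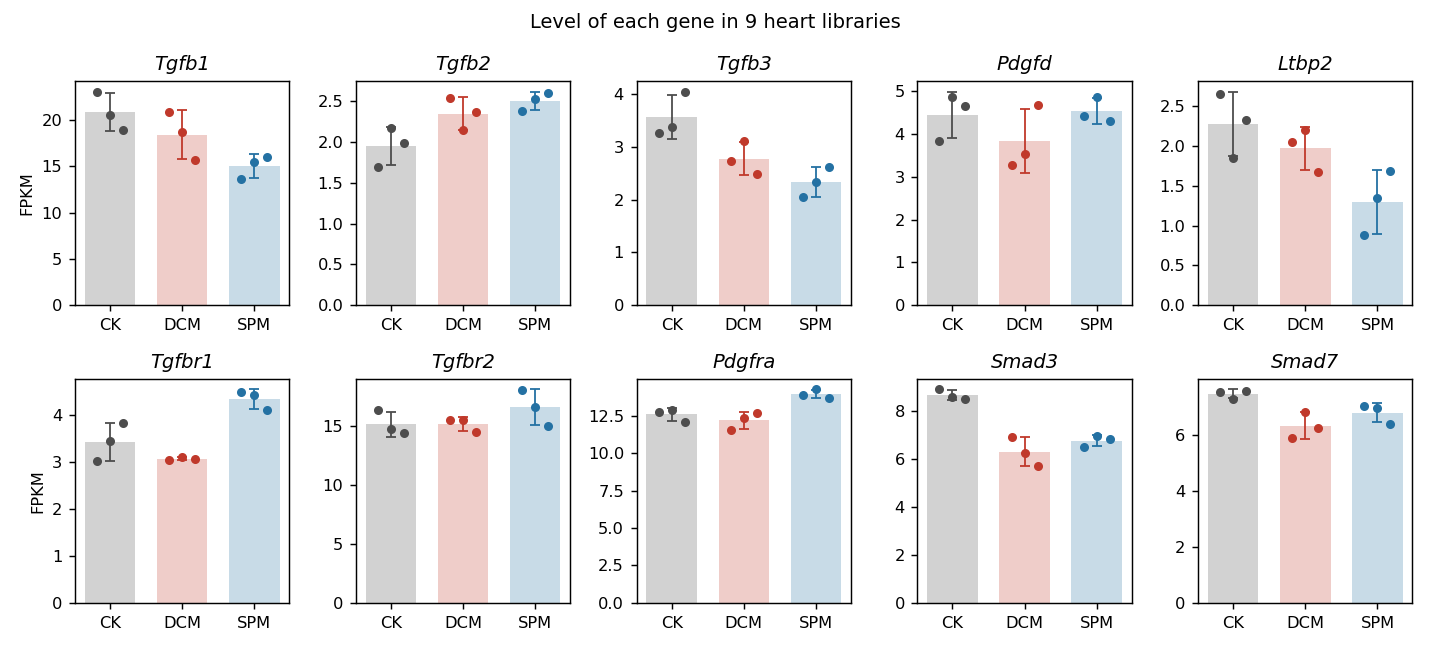
FPKM (linear y axis from 0, own scale per panel) of each of the 10 genes by group. Points are libraries, bars are means and error bars are SD (n = 3 libraries). The SPM points of Tgfbr1 (4.11 to 4.50 FPKM) lay above those of CK and DCM, and the CK points of Smad3 (8.51 to 8.90 FPKM) lay above those of DCM and SPM.

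The 3 comparisons were DCM compared to CK, SPM compared to DCM and SPM compared to CK, which share libraries in pairs. A gene passed the test at an adjusted p below 0.05 in edgeR's quasi-likelihood test over all genes tested, and was called a DEG (differentially expressed gene) if its fold change was also at least 1.5. In DCM compared to CK, 1 of the 10 genes passed, Smad3, which was lower in DCM, compared to 10.4% of all genes tested (5.28% higher and 5.11% lower). None was a DEG in edgeR, compared to 4.34% of all genes (2.03% higher and 2.31% lower). Neither DESeq2 nor limma called one, and 2 of the 10 genes had an unadjusted p below 0.05 in edgeR. The median log2 fold change of the 10 genes was -0.10, and that of all genes was -0.0025. The libraries of DCM and CK did not overlap for 2 of the 10 genes (Tgfb2 and Smad3), compared to 29.3% of all genes.

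In SPM compared to DCM, 1 of the 10 genes passed, Tgfbr1, which was higher in SPM, compared to 16.6% of all genes tested (8.87% higher and 7.76% lower). None was a DEG in edgeR or limma, compared to 3.59% of all genes in edgeR (2.70% higher and 0.890% lower), while 4 had an unadjusted p below 0.05 in edgeR and DESeq2 called 1, Ltbp2. The median log2 fold change of the 10 genes was 0.11 (all genes 0.0057), and libraries did not overlap for 2 genes (Tgfbr1 and Pdgfra), compared to 39.2% of all genes. SPM compared to CK gave more calls, as 7 of the 10 genes passed, compared to 27.4% of all genes tested. Tgfb2, Tgfbr1 and Pdgfra were upregulated (13.0% of all genes), and Tgfb1, Tgfb3, Ltbp2 and Smad3 were downregulated (14.3% of all genes). Ltbp2 was the single DEG, compared to 9.21% of all genes (5.08% higher and 4.12% lower). The median log2 fold change was 0.04 (all genes 0.0022), and libraries did not overlap for these 7 genes, compared to 46.3% of all genes. Without SPM replicate 2, none of the 10 genes passed in edgeR in SPM compared to DCM (3 had an unadjusted p below 0.05) or in SPM compared to CK (7 had one), and the share of all genes that passed fell to 0.486% in SPM compared to DCM and 10.4% in SPM compared to CK. The share of all genes with an unadjusted p below 0.05 was not counted. Counts at that limit, here and elsewhere, therefore have no share of all genes to be read against.

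**Figure D2:**
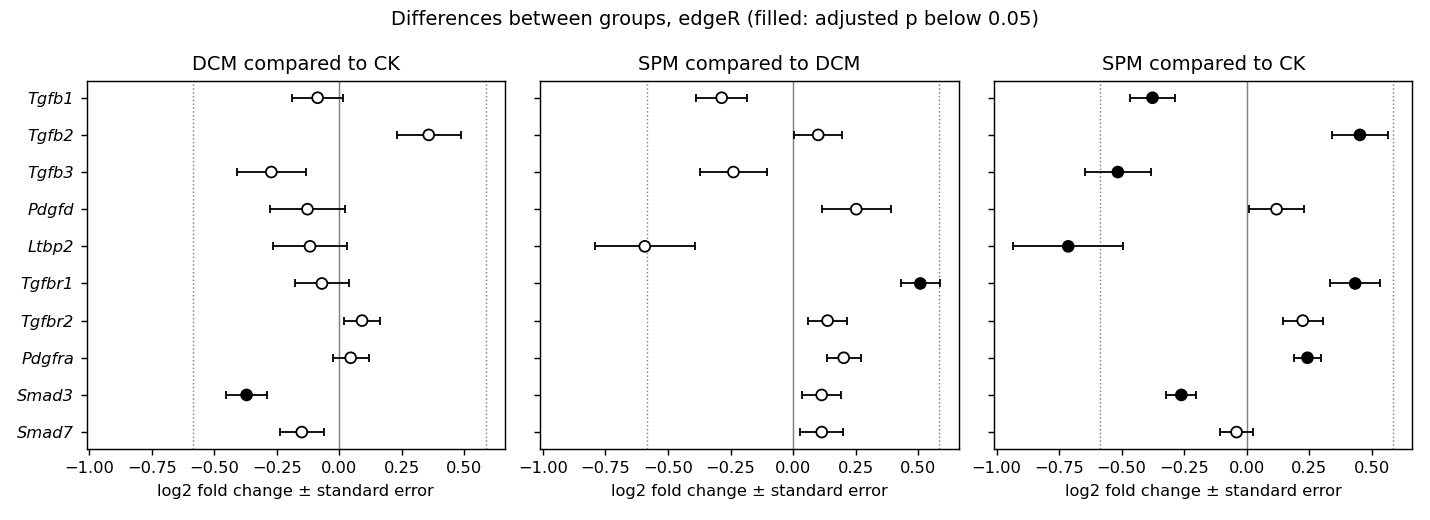
Log2 fold change (x axis) of each gene in the 3 comparisons, with bars of 1 standard error. Filled points had an adjusted p below 0.05, and dotted lines mark a fold change of 1.5. Only Ltbp2 in SPM compared to CK was filled and beyond a dotted line.

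Tgfb1 encodes the main TGF-beta ligand of injured and inflamed tissue. Its normalized CPM (CPM is the count scaled to the library total, here on a common TMM scale for the 9 libraries) was 56.6, 50.04 and 47.4 in CK replicates 1 to 3, 53.7, 49.9 and 41.4 in DCM, and 36.03, 40.9 and 42.2 in SPM. All 3 SPM libraries lay below all CK libraries, and the DCM libraries overlapped with both groups. Tgfb1 fell in SPM compared to CK by 0.38 on the log2 scale (SE 0.0881, adjusted p = 0.0153), and without SPM replicate 2 by 0.40 (adjusted p = 0.0565). Its log2 fold change was -0.09 (SE 0.102, adjusted p = 0.665) in DCM compared to CK and -0.29 (SE 0.102, adjusted p = 0.0779) in SPM compared to DCM. These values depended on DCM replicate 3. Without that library the log2 fold change was 0.02 compared to CK, and that of SPM compared to DCM was -0.40 with an adjusted p of 0.0303.

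Tgfb2 encodes the ligand needed for heart valve and outflow tract development, which requires the co-receptor betaglycan (Tgfbr3) to bind well to the type II receptor. Normalized CPM was 8.29, 10.5 and 9.86 in CK, 13.0, 11.3 and 12.4 in DCM, and 12.5, 13.3 and 13.6 in SPM. CK was below both diabetic groups in every library, and DCM and SPM overlapped. Tgfb2 rose in SPM compared to CK with a log2 fold change of 0.45 (SE 0.112, adjusted p = 0.0191), which was 0.45 without SPM replicate 2 with an adjusted p of 0.0833. In DCM compared to CK the log2 fold change was 0.36 (SE 0.128), also with all libraries higher, but the adjusted p was 0.102. DCM and SPM differed by 0.10 (SE 0.0957, adjusted p = 0.488). On log2 FPKM with limma the SPM and CK difference did not pass (adjusted p = 0.0549 and 0.0545 with a pseudocount of 0.1 and 1). The median log2 fold change of all genes in these 2 fits was -0.097 and -0.08.

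Tgfb3 encodes the third isoform, known for palate fusion. It had 10.5, 10.8 and 13.3 normalized CPM in CK, 9.22, 10.9 and 8.59 in DCM, and 7.14, 8.11 and 9.05 in SPM. SPM was below CK in every library, and DCM overlapped with both. Tgfb3 fell in SPM compared to CK by 0.52 on the log2 scale (SE 0.132, adjusted p = 0.0219). That call was lost without SPM replicate 2 (-0.51, adjusted p = 0.0861), without SPM replicate 1 (-0.43, adjusted p = 0.0587), without CK replicate 3 (-0.41, adjusted p = 0.0624) and after correction for GC content (-0.41, adjusted p = 0.0676). The other log2 fold changes were -0.27 (SE 0.139, adjusted p = 0.253) for DCM compared to CK and -0.24 (SE 0.134, adjusted p = 0.234) for SPM compared to DCM.

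The 3 ligands thus did not move in the same direction. Tgfb1 and Tgfb3 were lower and Tgfb2 was higher in SPM compared to CK, and each change was under 1.5-fold. The make-up of the ligand pool, looked at after these values were seen and so given with no test, shows this per library. The ratio of Tgfb2 to Tgfb3 FPKM was 0.521, 0.643 and 0.492 in CK, 0.930, 0.690 and 0.955 in DCM, and 1.16, 1.08 and 0.997 in SPM. The groups did not overlap, and the ratio went up from CK (0.552 ± 0.0800) through DCM (0.858 ± 0.146) to SPM (1.08 ± 0.0817). FPKM was not corrected for GC content, which is 46.9% for Tgfb2 and 53.0% for Tgfb3. The part of GC content in the ratio was not tested, and SPM replicate 2 may not be a separate sample. The sum of the 3 ligands was 26.4 ± 1.54 FPKM in CK, 23.6 ± 2.84 in DCM and 19.9 ± 1.65 in SPM. FPKM was not rescaled between libraries. On log2 of FPKM plus 0.1, the median log2 fold change of all genes compared to CK was -0.0883 in DCM and -0.097 in SPM. The part of this shift in the sum of the ligands was not tested. Tgfb1 made up 79.0% ± 3.21 of that sum in CK, 78.1% ± 1.73 in DCM and 75.7% ± 0.393 in SPM, and so remained by far the most abundant ligand transcript. Tgfb2 made up 7.44% ± 1.21, 10.1% ± 1.33 and 12.6% ± 0.499, respectively.

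**Figure D3:**
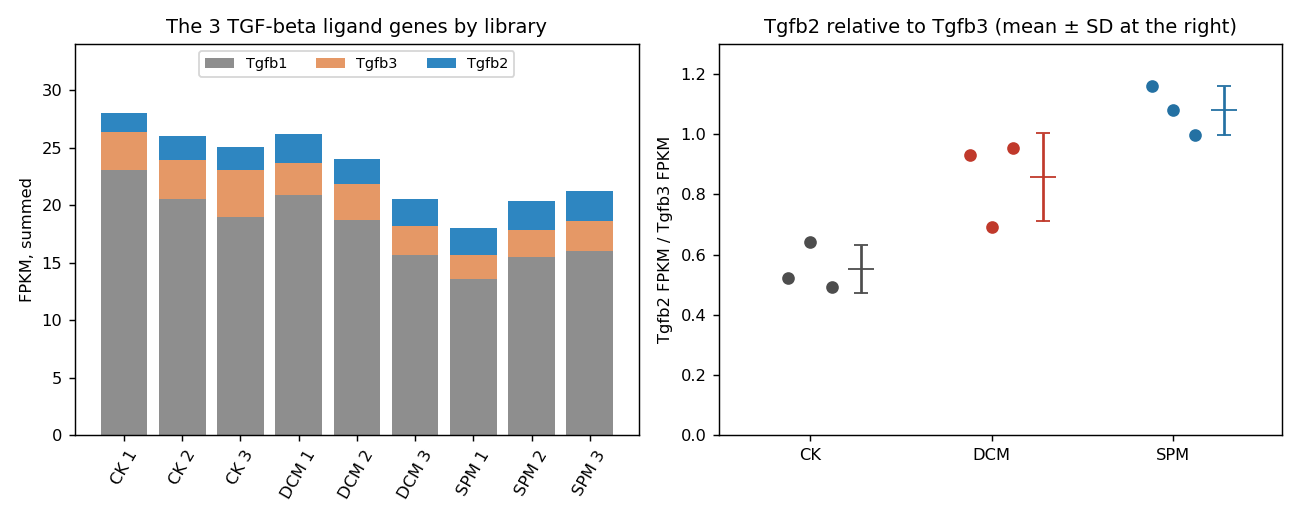
Left, summed FPKM of the 3 TGF-beta ligand genes per library as stacked bars. Right, the ratio of Tgfb2 to Tgfb3 FPKM, with points for libraries and mean ± SD beside them. The ratio was 0.492 to 0.643 over CK, 0.690 to 0.955 over DCM and 0.997 to 1.16 over SPM, with no overlap between groups. FPKM was not corrected for GC content and not rescaled between libraries.

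Ltbp2 encodes a latent TGF-beta binding protein that is incorporated into fibrillin microfibrils and, unlike other members of its family, does not hold latent TGF-beta covalently. Normalized CPM was 17.1, 11.9 and 15.3 in CK, 13.9, 15.4 and 11.6 in DCM, and 6.13, 9.30 and 11.7 in SPM. The highest SPM library lay just below the lowest CK library and just above the lowest DCM library, and the SPM libraries were the most spread in relative terms. Ltbp2 was downregulated in SPM compared to CK by 0.71 on the log2 scale (SE 0.220, adjusted p = 0.0418), a level of 0.610 times that in CK. This call was lost when any of 4 libraries was left out, namely SPM replicate 2 (-0.73, adjusted p = 0.105), SPM replicate 1 (-0.50, adjusted p = 0.0669), CK replicate 1 (-0.60, adjusted p = 0.129) or CK replicate 3 (-0.69, adjusted p = 0.102), and after GC correction (-0.53, adjusted p = 0.0967). The log2 fold change of SPM compared to DCM was -0.59 (SE 0.199, adjusted p = 0.0649). DESeq2 gave -0.60 with an adjusted p of 0.0241, and without SPM replicate 3 it was -0.82 with an adjusted p of 0.00974, whereas without SPM replicate 1 it was -0.38 (adjusted p = 0.0959) and after GC correction -0.38 (adjusted p = 0.254). DCM and CK differed by -0.12 (SE 0.147, adjusted p = 0.690).

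Tgfbr1 encodes the type I receptor kinase (ALK5) that phosphorylates Smad3. Normalized CPM was 16.6, 18.9 and 21.4 in CK, 17.5, 18.6 and 18.1 in DCM, and 26.7, 26.1 and 24.3 in SPM. All 3 SPM libraries were above all 6 of the other groups, while DCM lay within the range of CK. Tgfbr1 rose in SPM compared to DCM with a log2 fold change of 0.51 (SE 0.0775, adjusted p = 0.00956, a fold change of 1.42) and in SPM compared to CK with 0.43 (SE 0.1001, adjusted p = 0.0147). DCM and CK differed by -0.07 (SE 0.107, adjusted p = 0.754). Without SPM replicate 2 the values were 0.50 (adjusted p = 0.0558) and 0.42 (adjusted p = 0.0652). The GC content of Tgfbr1 is 41.0%, among the lowest of the 10 genes, and after GC correction its log2 fold changes were 0.24 (adjusted p = 0.146) and 0.18 (adjusted p = 0.121).

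Tgfbr2 encodes the type II receptor that binds the ligand first. It had 126.5, 113.5 and 113.1 normalized CPM in CK, 125.3, 130.1 and 120.4 in DCM, and 150.9, 138.2 and 124.7 in SPM, and the groups overlapped. Log2 fold changes were 0.09 (SE 0.0726, adjusted p = 0.491) in DCM compared to CK, 0.14 (SE 0.0794, adjusted p = 0.244) in SPM compared to DCM and 0.22 (SE 0.0801, adjusted p = 0.0680) in SPM compared to CK. The last one passed with DESeq2 (adjusted p = 0.0473), with all 9 libraries in one fit (0.0458), after GC correction (0.0377) and without SPM replicate 3 (0.0237). The ratio of Tgfbr1 to Tgfbr2 FPKM, given with no test and no GC correction, was 0.228 ± 0.0409 in CK, 0.203 ± 0.00746 in DCM and 0.262 ± 0.0127 in SPM.

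Smad3, the receptor-activated SMAD of the TGF-beta branch, was the gene of the 10 that passed in DCM compared to CK. Normalized CPM was 43.2, 41.4 and 42.1 in CK, 35.2, 32.9 and 29.8 in DCM, and 34.1, 36.3 and 35.7 in SPM. CK was above the other groups in every library, and DCM and SPM overlapped. Smad3 fell by 0.37 on the log2 scale in DCM compared to CK (SE 0.0826, adjusted p = 0.0135) and by 0.26 in SPM compared to CK (SE 0.0598, adjusted p = 0.0141). SPM and DCM differed by 0.11 (SE 0.0781, adjusted p = 0.328). The fall in DCM was -0.37 after GC correction (adjusted p = 0.00543) and -0.30 without DCM replicate 3 (adjusted p = 0.0568). The fall in SPM was -0.28 without SPM replicate 2 (adjusted p = 0.0746) and -0.15 after GC correction (adjusted p = 0.0979).

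Smad7, the inhibitory SMAD, did not pass in any comparison. Its normalized CPM was 30.7, 29.6 and 31.4 in CK, 25.1, 30.2 and 27.4 in DCM, and 31.0, 30.4 and 28 in SPM, with overlapping groups throughout. Log2 fold changes were -0.15 (SE 0.0889, adjusted p = 0.333) in DCM compared to CK, 0.11 (SE 0.0865, adjusted p = 0.375) in SPM compared to DCM and -0.04 (SE 0.0675, adjusted p = 0.681) in SPM compared to CK.

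Pdgfra, the PDGF receptor of cardiac fibroblasts, had 83.2, 83.6 and 80.2 normalized CPM in CK, 78.8, 87.5 and 88.6 in DCM, and 97.9, 99.8 and 95.7 in SPM. SPM was above the other groups in every library, and CK and DCM overlapped. Pdgfra rose in SPM compared to CK with a log2 fold change of 0.24 (SE 0.0549, adjusted p = 0.0135, a fold change of 1.18), which was 0.23 both after GC correction (adjusted p = 0.0166) and without SPM replicate 2 (adjusted p = 0.0943). Pdgfra did not pass on log2 FPKM with limma (0.15, adjusted p = 0.0822, at a pseudocount of 0.1). The median log2 fold change of all genes in that fit was -0.097, compared to 0.0022 in edgeR. The value in SPM compared to DCM was 0.20 (SE 0.0687, adjusted p = 0.0666), and in DCM compared to CK it was 0.05 (SE 0.0721, adjusted p = 0.764).

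Pdgfra is also a fibroblast gene, and in bulk tissue fewer cells of a type and less RNA per cell cannot be told apart. The summed CPM of 11 fibroblast markers in the matrix (Gsn, Dcn and Col3a1 the most abundant) was 6024 to 6317 over the CK libraries, 5208 to 5801 over DCM and 4886 to 5361 over SPM. The marker sum was thus lower in SPM than in CK while Pdgfra was higher. Gsn weighs most in this sum, with a mean of 3477 in CK and 3043 in SPM. By log2 fold change in SPM compared to CK, 9 markers were lower and 2 higher, among them Dcn (mean 795.2 in CK and 992.1 in SPM). Of the 11 markers, 9 passed in SPM compared to CK, 8 lower and 1 higher (Dcn), compared to 27.4% of all genes. In DCM compared to CK 8 passed, all lower, compared to 10.4% of all genes. In SPM compared to DCM 3 passed, 2 higher (Dcn among them) and 1 lower, compared to 16.6% of all genes. That number was 0 without SPM replicate 2 (0.486% of all genes) and 0 after GC correction (3.11%). Without SPM replicate 2, 7 passed in SPM compared to CK, all lower, compared to 10.4% of all genes. After GC correction 8 passed in SPM compared to CK, 7 lower and 1 higher, compared to 21.2% of all genes, and Dcn was not among them. Col1a1 and Col3a1 are also counted below among the genes known to respond to TGF-beta or BMP. The part of the fibroblast markers in the results of the 10 genes was not tested.

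Pdgfd had 11.5, 14.4 and 14.2 normalized CPM in CK, 10.2, 11.5 and 15.0 in DCM, and 14.2, 15.6 and 13.8 in SPM, and the groups overlapped in all 3 comparisons. Its log2 fold changes were -0.13 (SE 0.152, adjusted p = 0.668) in DCM compared to CK, 0.25 (SE 0.137, adjusted p = 0.218) in SPM compared to DCM and 0.12 (SE 0.111, adjusted p = 0.450) in SPM compared to CK. DCM replicate 3 was apart from the other DCM libraries, and without it SPM compared to DCM was 0.42 with an adjusted p of 0.0420. Pdgfd has the lowest GC content of the 10 genes (39.9%), and after GC correction its values in both comparisons with SPM turned to -0.05 and -0.17.

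**Figure D4:**
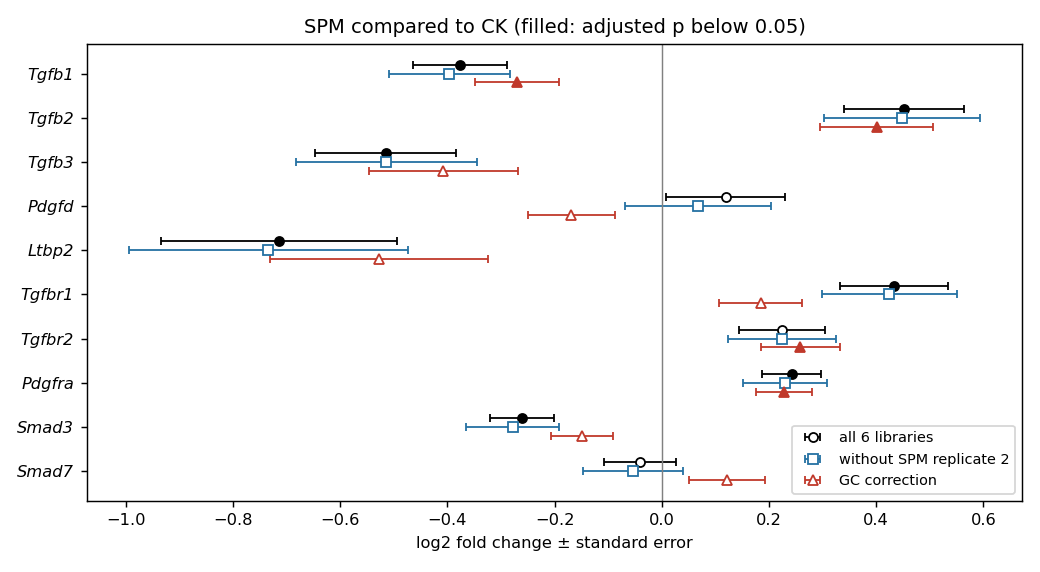
Log2 fold change of SPM compared to CK (x axis) with bars of 1 standard error, with all 6 libraries (black circles), without SPM replicate 2 (blue squares) and after GC correction (red triangles), filled at an adjusted p below 0.05. No square is filled although squares lie close to the circles, and GC correction moved Tgfbr1 from 0.43 to 0.18 and Pdgfd from 0.12 to -0.17.

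The wider pathway was read from 7 lists with 101 genes, of which 98 were in the matrix and 92 were tested in each comparison. In DCM compared to CK, 21 of the 92 passed (22.8%, compared to 10.4% of all genes), 11 higher and 10 lower. Of the 92, 11 were DEGs, compared to 4.34% of all genes. The median log2 fold change of the 92 genes was -0.04. Of 19 tested genes known to respond to TGF-beta or BMP, 7 passed, 3 higher and 4 lower. Col3a1 and Col1a1, the main fibrillar collagens of the heart, fell from 495.8 ± 11.8 to 170.0 ± 15.9 and from 229.2 ± 6.46 to 109.9 ± 4.43 normalized CPM, with log2 fold changes of -1.54 (SE 0.0818, adjusted p = 8.8e-07) and -1.06 (SE 0.0683, adjusted p = 3.4e-06). Thbs2, a matricellular thrombospondin, rose from 49.9 ± 4.55 to 100.2 ± 5.58 normalized CPM (log2 fold change 1.01, SE 0.0833, adjusted p = 1.9e-05). The responsive genes thus changed in both directions.

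Among 17 genes of ligand storage and activation, 6 passed in DCM compared to CK, 2 higher and 4 lower. Itgb6, the beta chain of an integrin that opens latent TGF-beta, fell from 13.4 ± 1.89 to 4.80 ± 0.646 normalized CPM (log2 fold change -1.48, SE 0.155, adjusted p = 1.1e-04). Fbn1, the fibrillin to which latent complexes attach, fell by 0.58 on the log2 scale (adjusted p = 3.5e-04), and Nrros, which presents latent TGF-beta1 on macrophages, fell by 0.52 (adjusted p = 0.0142). Of 11 receptors, 2 passed, both higher, namely the co-receptor Tgfbr3 (0.31, adjusted p = 0.0237) and the activin receptor Acvr1b (0.32, adjusted p = 0.0353). Of 16 SMADs and regulators, 3 passed. Smad9, a SMAD of the BMP branch, was higher by 0.61 (adjusted p = 0.0215), the inhibitory Smad6 was higher by 0.33 (adjusted p = 0.0385), and Pmepa1, a TGF-beta target that limits SMAD signalling, fell by 0.37 (adjusted p = 0.0110).

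Of 10 extracellular binders and antagonists, the secreted glycoprotein gene Fstl1 alone passed in DCM compared to CK, and it fell by 0.61 on the log2 scale (adjusted p = 4.2e-04). Of 12 other ligands of the superfamily, Gdf10 (0.65, adjusted p = 0.0270) and Bmp6 (0.27, adjusted p = 0.0414) passed, both higher. None of 7 PDGF family and protease genes passed in edgeR, where 1 had an unadjusted p below 0.05, or in DESeq2, and limma called 1, Pdgfa. The calls of Itgb6, Fbn1, Fstl1, Col3a1, Col1a1 and Thbs2 held under every alternative. Without CK replicate 2, 12 of the 92 genes passed, compared to 5.59% of all genes, and Nrros, Acvr1b, Tgfbr3, Smad9, Smad6, Gdf10 and Bmp6 were among the pathway genes that did not.

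Of the 92 pathway genes, 14 passed in SPM compared to DCM (15.2%, compared to 16.6% of all genes), 6 higher and 8 lower. Among the 92 was 1 DEG, compared to 3.59% of all genes. Of 11 receptors, 3 passed, all higher, and all 3 bind BMPs or activins. They were Bmpr1a (56.6 ± 3.93 in DCM and 79.99 ± 1.26 normalized CPM in SPM, log2 fold change 0.50, adjusted p = 0.00813), Acvr2a (0.41, adjusted p = 0.0330) and Bmpr2 (0.41, adjusted p = 0.0301). Of 17 storage and activation genes, 5 passed, 1 higher and 4 lower. Lrrc32, which presents latent TGF-beta on regulatory T cells and platelets, fell by 0.53 on the log2 scale (adjusted p = 0.0133), Ltbp4, a binder of latent TGF-beta1, fell by 0.50 (adjusted p = 0.0232), and the integrin gene Itgb5 fell by 0.35 (adjusted p = 0.0182).

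Other calls in SPM compared to DCM were spread over other lists. Dcn, the matrix proteoglycan decorin that binds TGF-beta, rose by a log2 fold change of 0.36 (adjusted p = 0.0199), although it was -0.03 after GC correction, and Fstl1 rose by 0.26 (adjusted p = 0.0399). Inhbb, the activin beta B subunit and the single DEG, fell by 0.69 on the log2 scale (adjusted p = 0.0159). Pdgfb, the ligand that recruits mural cells, fell by 0.29 (adjusted p = 0.0286), and Plat, tissue plasminogen activator, fell by 0.29 (adjusted p = 0.0263). Of 16 SMADs and regulators none passed in edgeR, where 3 had an unadjusted p below 0.05, and DESeq2 called 1, Map3k7. Few of these calls held with a library left out. Of the 92 genes, 1 passed without SPM replicate 2 (Bmpr1a, 0.51, adjusted p = 0.0439), 1 without DCM replicate 2 (Bmpr1a, 0.46, adjusted p = 0.0473), 5 without DCM replicate 1 and 1 after GC correction (Plat, -0.40, adjusted p = 0.0349). The calls over all genes fell too, to 0.486%, 1.29%, 5.04% and 3.11% in these fits, respectively. GC correction also made most fold changes of the called pathway genes smaller. Those of the receptor genes became 0.24 for Bmpr1a, 0.15 for Bmpr2 and 0.11 for Acvr2a. Those of genes that had fallen became -0.32 for Lrrc32, -0.24 for Ltbp4, -0.17 for Itgb5, -0.45 for Inhbb and -0.052 for Pdgfb.

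Of the 92 pathway genes, 30 passed in SPM compared to CK (32.6%, compared to 27.4% of all genes), 11 higher and 19 lower. Among the 92 were 10 DEGs, compared to 9.21% of all genes. Of 17 storage and activation genes, 9 passed, 8 of them lower. Itgb6 fell from 13.4 ± 1.89 to 3.98 ± 1.87 normalized CPM (log2 fold change -1.76, SE 0.299, adjusted p = 0.00442), Ltbp4 fell from 952.4 ± 78.2 to 566.8 ± 95.1 (-0.75, SE 0.116, adjusted p = 0.00315), and Fbn1 fell by 0.59 on the log2 scale (adjusted p = 0.00362). Of 11 receptors, 6 passed, 4 higher and 2 lower, with Bmpr2 (0.66, adjusted p = 0.00505), Tgfbr3 (0.45, adjusted p = 0.00155) and Bmpr1a (0.41, adjusted p = 0.0269) higher. After GC correction Bmpr2 was at 0.41 (adjusted p = 0.0104) and Bmpr1a at 0.18 (adjusted p = 0.110). Of 16 SMADs and regulators 3 passed, Smad9 (0.60, adjusted p = 0.0155) and the kinase gene Map3k7 (0.34, adjusted p = 0.0129) higher and Pmepa1 (-0.42, adjusted p = 0.00621) lower.

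Of 19 responsive genes, 8 passed in SPM compared to CK, 3 higher and 5 lower. Col3a1 and Col1a1 were at 175.3 ± 63.3 and 97.8 ± 24.1 normalized CPM in SPM, with log2 fold changes of -1.50 (SE 0.223, adjusted p = 0.00270) and -1.23 (SE 0.151, adjusted p = 0.00136), and Thbs2 rose by 1.09 (SE 0.0929, adjusted p = 4.1e-04). Of 10 binders and antagonists, Fstl1 fell by 0.35 on the log2 scale (adjusted p = 0.00295) and Dcn rose by 0.31 (adjusted p = 0.0203), with -0.07 after GC correction. None of 12 other superfamily ligands passed in edgeR, where 4 had an unadjusted p below 0.05, or in DESeq2, while limma called 1, Inhbb, and edgeR after GC correction called 2, Bmp6 and Inha. In the PDGF list of 7 genes, Pdgfb fell by 0.30 (adjusted p = 0.0186) and Pdgfrb, the receptor of mural cells, fell by 0.24 (adjusted p = 0.0441), but after GC correction they were at -0.10 (adjusted p = 0.230) and -0.11 (adjusted p = 0.227) and none of the list passed in edgeR, where 1 had an unadjusted p below 0.05. The calls of Itgb6, Ltbp4, Fbn1, Bmpr2, Tgfbr3, Pmepa1, Fstl1, Col3a1, Col1a1 and Thbs2 held under every alternative, whereas 15 of the 92 genes passed without SPM replicate 2, compared to 10.4% of all genes.

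**Figure D5:**
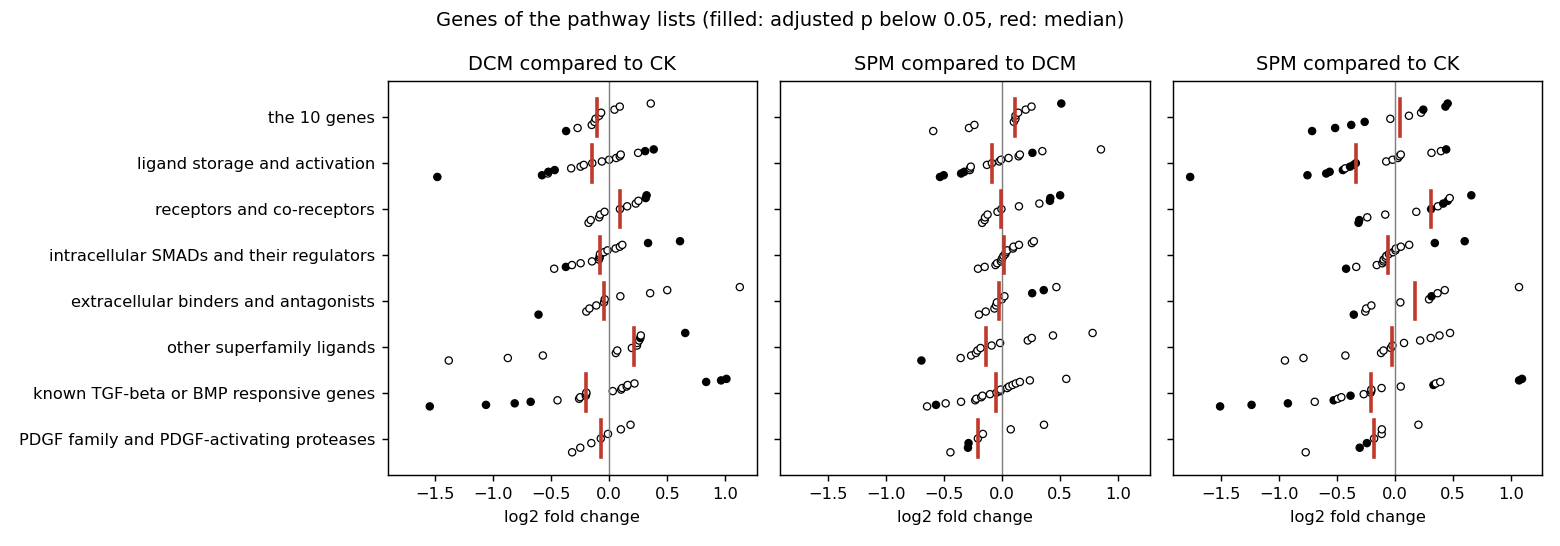
Log2 fold change (x axis) of the 10 genes and of the tested genes of each pathway list in the 3 comparisons, one point per gene, filled at an adjusted p below 0.05, with the median of each list as a red bar. Points lay on both sides of 0 in every list and comparison, and the medians over the 7 pathway lists together were -0.04, -0.02 and -0.09.

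Markers of other cells differed between groups for some lists and overlapped for others. The summed CPM of 10 macrophage markers was 803.6 to 1061 over the CK libraries, 668.9 to 788.2 over DCM and 792.7 to 1350 over SPM. In DCM compared to CK 7 of the 10 passed, 6 lower and 1 higher (10.4% of all genes). In SPM compared to CK 1 passed, higher, with or without SPM replicate 2 (27.4% and 10.4% of all genes). In SPM compared to DCM 6 passed, all higher (16.6% of all genes). That number was 3 with DESeq2 (12.5%), 2 with limma at a pseudocount of 0.1 (15.3%) and 3 after GC correction (3.11%). It was 0 in edgeR without SPM replicate 2 (0.486%), where 7 had an unadjusted p below 0.05. The DESeq2 share is over 21918 genes, with no filter on low counts, and the 16.6% of edgeR is over 14493. The 10 endothelial markers summed to 2880 to 3292 over CK, 2795 to 2986 over DCM and 2685 to 2763 over SPM, and the 10 smooth muscle and pericyte markers to 1482 to 1647, 1509 to 1689 and 1499 to 1539. In SPM compared to CK, 3 endothelial markers passed, all lower, and 5 smooth muscle and pericyte markers, 4 lower and 1 higher (27.4% of all genes). Without SPM replicate 2 these numbers were 2 and 1, all lower (10.4%). In SPM compared to DCM 2 of each list passed, all lower (16.6%). The 6 cardiomyocyte markers summed to 42260 to 47560, 40630 to 48250 and 35400 to 40820, and the 8 atrial markers (Nppa, Myl4 and Myl7 the most abundant) to 1161 to 1581, 634.4 to 1161 and 1140 to 1821. In SPM compared to CK, 3 cardiomyocyte markers passed, 1 higher and 2 lower, and 2 atrial markers, 1 higher and 1 lower. Without SPM replicate 2 these numbers were 0 and 1. Of the atrial markers, 3 passed in DCM compared to CK, all lower, and 3 in SPM compared to DCM, all higher (0 without SPM replicate 2). Of the 8 platelet markers, whose cells store TGF-beta1, 3 stayed under 1 CPM in every library, and the list summed to 28.3 to 38.3, 20.6 to 36.2 and 28.7 to 30.0. The share of counts on mitochondrial genes ran from 21.01% to 21.1% over the SPM libraries, from 15.5% to 18.9% over the DCM libraries and from 13.7% to 16.2% over the CK libraries. The part of these shifts in the results was not tested.

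By GENCODE M21 (GRCm38), Pdgfd, Tgfbr2 and Smad3 lie on chromosome 9, Ltbp2 and Tgfb3 on chromosome 12, and each of the other genes on a chromosome with no other gene of the 10. Ltbp2 lies at chr12:84783212-84876532 and Tgfb3 at chr12:86056745-86079041, both on the minus strand. Tgfb1, Tgfbr1, Tgfbr2, Smad3 and Smad7 overlap no other annotated gene. Tgfb2, Tgfb3, Ltbp2, Pdgfra and Pdgfd each overlap at least 1 gene on the opposite strand, which is the protein-coding Ttll5 for Tgfb3 and Ddi1 for Pdgfd. Whether the counting used strand is not given in the sources used here, so counts of these 5 genes may hold reads of the opposite strand.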

How the data were processed

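Heart RNA of 9 libraries, 3 each of CK, DCM and SPM, was assigned to groups by label. Per the paper, poly(A) RNA was selected, rRNA was removed, and reads were filtered with fastp. The authors deposited counts, which are whole numbers per gene and library, and FPKM values per library, which relate the counts to gene length and library total. The submitters' processing notes list Bowtie 0.12.2 and the builds mm8 and mm9 without a role. For the annotation and the counting tool, no name is given in the sources used here. Symbols and coordinates came from GENCODE M21 (GRCm38), which named 22844 of 22851 identifiers, and promoters from RefSeq.

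Counts were tested in pairs of groups with edgeR 4.0.16 in R 4.3.3 (glmQLFit and glmQLFTest, filterByExpr, TMM), with Benjamini-Hochberg adjustment over all genes tested, at an adjusted p of 0.05 and, for DEGs, a fold change of 1.5. The standard error is the log2 fold change divided by the square root of F. Normalized CPM used TMM factors of all 9 libraries (0.967 to 1.05). Total counts were 29901300 to 39718680. The steps were tested on simulated data. Figures used Python 3.11.15, pandas 2.3.3, numpy 2.4.6 and matplotlib 3.10.9.

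All 10 members are named, and in each pathway list and comparison the up to 3 genes with the largest absolute log2 fold change among those that passed, and of each marker list the 3 most abundant. Pdgfa and Inha, and Map3k7, Inhbb and Bmp6 where another fit called them, were named after their values were seen. The members and lists were chosen with earlier results of these data known. Alternatives were a fold change of 1.3, DESeq2 1.42.0, RLE scaling, testing every gene with a count, a filter at 1 CPM in 3 or more libraries, one fit over all 9, the replicate number as block, limma 3.58.1 on log2 of FPKM plus 0.1 or 1 (mean FPKM of at least 0.5), a GC correction (lowess span 0.3, as offset) and each library left out. For the pathway genes they were added after the data had been seen. Htra1, Gdf1, Timp1, Actc1, Pln, Tcf21, Rcvrn, Opn1mw and Rpe65 of the lists were not analysed here, and a gene named by this rule is not reported here.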

Additional observations from a re-analysis of the deposited data

How the results depend on the processing

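Of the members' fold changes under the alternatives, 405 kept direction and side of the threshold, 23 lost and 13 gained a call, and 9 changed sign. The 405 also hold values that had no call to lose. Only 1 member passed in the main fit of DCM compared to CK, 1 in SPM compared to DCM and 7 in SPM compared to CK. All calls in the comparisons with SPM were lost without SPM replicate 2. The sign changes were of values that had not passed: Pdgfra in DCM compared to CK (-0.046 and -0.043 with limma at a pseudocount of 0.1 and 1), in the same comparison with a library left out Ltbp2 (-0.25 to 0.0035), Tgfbr1 (-0.16 to 0.025) and Tgfb1 (-0.16 to 0.020), Pdgfd after GC correction (-0.049 in SPM compared to DCM and -0.17 in SPM compared to CK), and Smad7 in SPM compared to CK (0.12 after GC correction and -0.068 to 0.0004 with a library left out). For the other named genes, 510 kept, 118 lost a call and 2 turned, namely Dcn after GC correction (-0.028 compared to DCM and -0.068 compared to CK). In the limma fits of DCM compared to CK, the median log2 fold change of all genes was -0.0883 and -0.0743, compared to -0.0025 in edgeR. The cause of the sign changes was not tested.

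Members that passed numbered 0 to 1 in DCM compared to CK, 0 to 3 in SPM compared to DCM and 0 to 8 in SPM compared to CK when each library was left out. Of all genes, 5.59% to 8.91%, 0.486% to 16.3% and 10.4% to 25.2% passed in these fits, in the same order. In SPM compared to DCM, 2 members passed with DESeq2 (12.5% of all genes) and with no low-count filter (12.1%). These 2 shares are over 21918 genes, while the main fit tested 14493. The number of members that passed was also 2 with the 1 CPM filter (19.4%) and with all 9 libraries (15.6%), and 0 after GC correction (3.11%). Members that passed in SPM compared to CK numbered 4 after GC correction (Tgfb1, Tgfb2, Tgfbr2 and Pdgfra), compared to 21.2% of all genes. DEGs among the members with a library left out numbered 0 in DCM compared to CK, 0 to 1 in SPM compared to DCM and 0 to 2 in SPM compared to CK. In SPM compared to DCM they numbered 1 at a fold change of 1.3, with DESeq2 and with no low-count filter. In SPM compared to CK they numbered 4 at a fold change of 1.3, 2 and 0 with limma at a pseudocount of 0.1 and 1, and 0 after GC correction. In the main fits, DEGs made up 3.59% of all genes in SPM compared to DCM and 9.21% in SPM compared to CK. Counts over all genes at 1.3 and with a library left out are given at the end. For DESeq2, no low-count filter and the replicate block below, none is given to read the members against. The same holds in SPM compared to CK for limma at a pseudocount of 0.1 and for GC correction.

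With the replicate number as a block, 2 members passed in SPM compared to DCM (19.4% of all genes passed) and 1 was a DEG (Ltbp2, -0.62, adjusted p = 0.0293). The numbers did not pair the libraries. Residual correlations were -0.0746 to 0.205 between libraries of the same number and -0.284 to 0.217 between others.

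Over all genes, DEGs in DCM compared to CK numbered 1100 at a fold change of 1.3, 412 with limma at a pseudocount of 1, and 427 to 704 with a library left out. In SPM compared to DCM they numbered 1299 at 1.3, 308 and 156 with limma, 125 after GC correction and 56 to 791 with a library left out (56 without SPM replicate 2, 73 without DCM replicate 2, 280 without DCM replicate 1). For SPM compared to CK the counts were 2532 at 1.3, 686 with limma at a pseudocount of 1, and 771 (without SPM replicate 2) to 1589. Pathway genes that passed numbered 12 to 20, 1 to 19 and 15 to 36 with a library left out, in that order of comparisons, and 1 in SPM compared to DCM after GC correction. The shares of all genes that passed in these fits are those given above beside the members.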
